A study of Mus musculus with 4 samples.

Results

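The cytosolic ribosomal protein genes were followed through 4 RNA-seq libraries of mouse hematopoietic stem cells (HSCs) with and without the transcription factor Gfi1b. Genes were taken by their symbol, as protein-coding genes named Rps or Rpl followed by a number, with an optional final a, x, l or l with a digit, together with Rpsa, Rplp0, Rplp1 and Rplp2. Kinases of the Rps6k family, Rps19bp1 and pseudogenes were left out. The rule found 82 genes among 41214 listed for the CD41low CD9low HSC libraries and 81 among 38293 listed for the HSC libraries, where the identifier of Rpl24 had no row. They comprised 30 genes of the small subunit, 43 of the large subunit, the 3 stalk genes Rplp0, Rplp1 and Rplp2, and 6 paralogs, that is genes for variant copies of a ribosomal protein (Rpl3l, Rpl7l1, Rpl10l, Rpl22l1, Rpl39l and Rps27l). They lay on 19 chromosomes, with 14 of them on chromosome 7 and 4 on chromosome X.

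Ribosomal proteins assemble with ribosomal RNA in the nucleolus into a small subunit, which reads the mRNA, and a large subunit, which joins the amino acids. The subunits need most of these proteins in equal amounts, and in mammals many of the mRNAs begin with a run of pyrimidines, the terminal oligopyrimidine (TOP) motif, which couples their translation to growth signals through mTOR. HSCs are known for a low rate of protein synthesis, and lowered dosage of single ribosomal proteins such as RPS19 causes the marrow failure of Diamond-Blackfan anemia.

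The cells came from tibiae, femora and humeri of C57Bl6 mice whose floxed Gfi1b alleles could be removed with tamoxifen by a Cre recombinase expressed from the Rosa locus, a promoter active in most cell types and so not limited to HSCs. According to the methods, the KO mice were Rosa-Cre Gfi1b fl/fl and the WT controls Rosa-Cre Gfi1b wt/fl, both were given tamoxifen, and marrow of several mice was pooled before sorting, whereas the deposited design text describes controls by the lack or presence of the Cre. The mice's age was not given in the sources used here. HSCs were sorted as Lin- cKit+ Sca1+ Cd48- CD150+ cells, and a second sort took HSCs with low CD41 and CD9, surface proteins that megakaryocyte precursors carry at high levels. The paper's results section instead calls the first RNA-seq population CD41+ CD9+ HSCs. Whether the first population included cells like those of the second is therefore not settled by these sources. There was 1 library per genotype and population, so within a population KO and WT were compared as values, with no test.

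Between 12732079 and 50781007 read counts fell on genes in a library, the CD41low CD9low HSC libraries being the shallower ones. The 9 HSC marker genes were detected in every library, and the summed level of Itga2b (CD41) and Cd9 was 732 and 876 counts per 1000000 gene counts (CPM) in the WT and KO HSC libraries and 245 and 338 CPM in the CD41low CD9low ones. Gfi1b itself was counted at 182 CPM in the HSC WT library and 1197 CPM in the KO library, and at 48.0 and 509 CPM in the CD41low CD9low pair, so the gene-level count was higher in the libraries labelled KO. The sample titles name Gfi1 WT and Gfi1 KO, whereas the genotype labels, the series title and the methods name Gfi1b, which was followed here. A count over the whole gene does not separate the floxed exons from the rest and does not check the deletion, so KO and WT below are the labels of the libraries. The paper reports that transcripts of the floxed exons were missing from HSCs and megakaryocytes after the deletion, which these counts cannot repeat. Counts of reads that fell outside annotated genes were 80 and 105.3 per 100 gene counts in the WT and KO HSC libraries and 62.02 and 60.12 in the CD41low CD9low pair. The summed level of 9 megakaryocyte markers was 1047 and 1625 CPM in the HSC pair and 310.2 and 341 CPM in the CD41low CD9low pair, with 6 markers higher and 3 lower in KO in each pair. Itgb3 alone had 202 and 663 CPM in the HSC pair and 51.4 and 141 CPM in the other, and the other 8 summed to 844 and 961 CPM in the WT and KO HSC libraries and to 259 and 200.2 CPM in the CD41low CD9low ones. In the latter pair 8 erythroid markers summed to 134 and 18.6 CPM and 9 neutrophil and monocyte markers to 1345 and 495 CPM, and the KO library had no count of Car1. Of 5 lymphoid markers 4 were matched, with a sum of 0.209 to 2.17 CPM over the libraries. The 5 proliferation markers summed to 1974 and 1568 CPM in the HSC pair and to 1322 and 956 CPM in the other.

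The start sites of the genes are shown first, since a TOP motif there is what many of these mRNAs are known to share. RefSeq promoter windows of 300 bases (250 before the start site and 50 from it on, GRCm38.p6) were matched for 62 of the 82 genes. The sequences below run from 60 bases before the start site to the 15th base of the transcript, 5′ to 3′ on the gene's strand, and the capitals mark the longest run of C and T that touches the 30 bases on either side of the start site. Start sites are those of RefSeq, which differ from the start of the main GENCODE transcript by 493 bases for Rpl35. For the other genes shown they differ by at most 44 bases, and among genes not shown by up to 2614 (Rpl18). The first 4 genes had the lowest KO/WT ratios in HSCs among genes with a window.

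Rps16: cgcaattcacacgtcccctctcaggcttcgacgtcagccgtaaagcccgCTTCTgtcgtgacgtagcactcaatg
Rpl7a: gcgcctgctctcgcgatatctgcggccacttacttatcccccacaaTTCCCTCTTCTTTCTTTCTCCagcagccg
Rps18: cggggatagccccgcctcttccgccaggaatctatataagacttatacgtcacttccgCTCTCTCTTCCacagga
Rpl35: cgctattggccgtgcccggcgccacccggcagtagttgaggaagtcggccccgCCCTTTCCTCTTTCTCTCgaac

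The next 4 were among those with ratios above 1 in the same pair.

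Rpl10: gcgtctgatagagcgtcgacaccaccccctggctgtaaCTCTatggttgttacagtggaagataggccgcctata
Rpl38: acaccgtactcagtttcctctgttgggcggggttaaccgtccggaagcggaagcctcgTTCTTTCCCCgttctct
Rps21: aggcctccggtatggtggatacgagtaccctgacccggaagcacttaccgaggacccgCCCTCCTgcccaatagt
Rps27: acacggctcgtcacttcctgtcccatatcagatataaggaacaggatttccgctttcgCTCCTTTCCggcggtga

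These stretches are Rps16 at chr7:28350629-28350703 on the plus strand, Rpl7a at chr2:26910747-26910821 on the plus strand, Rps18 at chr17:33955651-33955725 on the minus strand, Rpl35 at chr2:39005117-39005191 on the minus strand, Rpl10 at chrX:74270756-74270830 on the plus strand, Rpl38 at chr11:114668520-114668594 on the plus strand, Rps21 at chr2:180257319-180257393 on the plus strand and Rps27 at chr3:90213634-90213708 on the minus strand. The run was 21 bases in Rpl7a, 18 in Rpl35, 11 in Rps18 and 5 in Rps16, and 10 bases in Rpl38, 9 in Rps27, 7 in Rps21 and 4 in Rpl10. A run of at least 10 pyrimidines on the sense strand was found in 34 of 62 ribosomal protein genes (54.8%), against 13.5% of 16300 protein-coding genes with a window. The letters CCGGAAG, the core bound by ETS factors, were found on either strand in 38.7% of the windows against 12.5% over all genes, and CCATNTT, a core bound by YY1, in 32.3% against 15.3%. The GC box GGGCGG stood in 59.7% against 48.9% and TATAAA in 9.68% against 12.7%. Genes with and without such a run had close KO/WT ratios in HSCs, with a median log2 ratio of -0.28 over 34 genes and of -0.24 over 24. The run could lie away from the start site, as in Rpl22, where 14 bases began at position -39 from it. In Rps27 a run of 9 bases spanned the start site but was too short to count. These groups therefore do not separate mRNAs with a TOP motif from those without one.

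Ribosomal protein genes took a smaller part of the HSC library labelled KO than of the WT library, while the CD41low CD9low pair differed little. Their summed counts were 5.49% of all gene counts in the HSC WT library (95% Clopper-Pearson interval 5.486 to 5.499) and 4.50% in the HSC KO library (4.495 to 4.507). The shares in the CD41low CD9low pair were 7.09% (7.078 to 7.106) in WT and 6.89% (6.876 to 6.899) in KO. The KO share was thus 0.820 times the WT share in HSCs, against 0.971 times in the second population, and both CD41low CD9low libraries were above both HSC libraries. These intervals cover counting error only and not the spread between mice or sorts, which 1 library per group cannot give. In bulk libraries such as these, fewer cells of a type and less RNA per cell cannot be told apart.

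**Figure D1:**
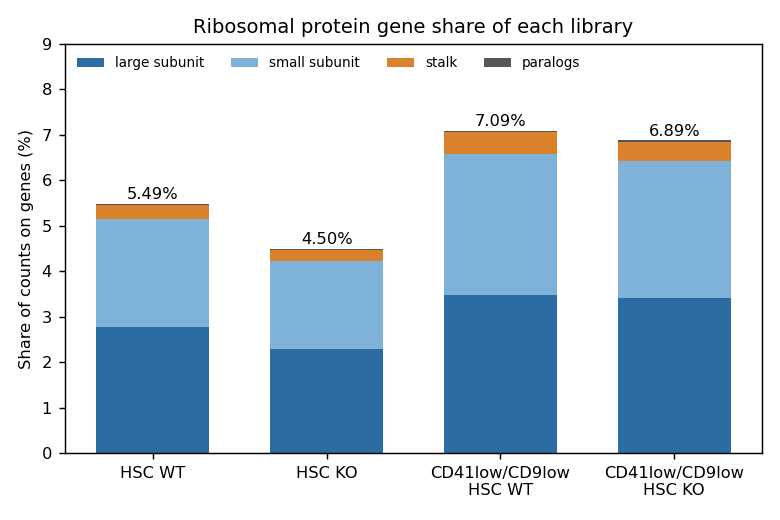
Share of all counts on genes that fell on ribosomal protein genes in each library, in percent, with 1 bar per library divided into large subunit, small subunit, stalk and paralog genes. The bar of the HSC KO library is the lowest at 4.50% and that of the CD41low CD9low WT library the highest at 7.09%.

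The subunits kept close proportions. Large subunit genes had 1.16 and 1.20 times the counts of small subunit genes in the WT and KO HSC libraries and 1.13 times in both CD41low CD9low libraries. In HSCs the summed CPM of the large subunit genes was 0.830 times as high in KO as in WT, that of the small subunit genes 0.807 times and that of the stalk genes 0.816 times. The corresponding values in CD41low CD9low HSCs were 0.975, 0.974 and 0.925. Mitochondrially encoded genes, whose transcripts are read by a different ribosome, took 2.32% and 1.74% of the WT and KO HSC libraries and 0.848% and 0.693% of the CD41low CD9low pair.

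Levels per kilobase of the main annotated transcript differed widely between genes, although the proteins are needed in like amounts. The median was 734 CPM per kb in HSC WT, 573 in HSC KO, 918 in CD41low CD9low WT and 880 in CD41low CD9low KO. Rpl32, of the large subunit, had the highest level in HSC WT (1983 CPM per kb), and the small subunit genes Rps14 (1895) and Rps4x (1833) were also among the 5 highest. In CD41low CD9low WT the stalk gene Rplp1 had the highest value, 3527 CPM per kb, and Rps9 (2919) and Rps14 (2910) were close to each other. At the lower end were Rpl7l1 (57.6 CPM per kb in HSC WT), Rps27l (108) and Rpl29 (132). The order depends on which annotated transcript is taken as the main one and on the reads lost to gene copies, so close neighbours in it cannot be told apart.

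Several paralogs were hardly or not detected. Rpl10l, a testis copy of Rpl10, had 0 counts in all 4 libraries, which allows at most 0.0591 to 0.236 CPM for a floor of 3 counts. Rpl3l, the muscle copy of Rpl3, had 5 counts in HSC WT and 0 in the other libraries. Rpl39l was counted 0 times in HSC WT, 3 times in HSC KO, 0 times in CD41low CD9low WT and 17 times in CD41low CD9low KO. With the WT count set to the floor of 3, the KO/WT ratio of Rpl39l in the CD41low CD9low pair was 3.78. This value depends on the floor and is not a lower bound. The interval for counting error, with the WT count at 0, began at a ratio of 2.75.

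In HSCs nearly all ribosomal protein genes were somewhat lower in the KO library, and few stood apart from the rest. At least 10 counts in a library of the pair were reached by 78 genes, and the KO/WT ratio of their normalized counts was below 1 for 72 of them, where 50% of all 15910 genes that passed the same filter were below 1. The median log2 KO/WT was -0.27, a ratio of 0.831, against 0.00 over all genes. The ratios of individual genes were narrowly spread, with 60 of 78 between 0.70 and 0.90 and 14 between 0.90 and 1.10. The 95% counting interval lay below 1 for 70 genes, above 1 for 3 and included 1 for 5.

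In CD41low CD9low HSCs the same genes sat close to a ratio of 1. Of 80 genes that passed, 48 were below 1, where 49% of 14844 genes were, and the median log2 KO/WT was -0.02, a ratio of 0.989. Between 0.90 and 1.10 lay 67 genes, and the counting interval was below 1 for 33, above 1 for 16 and included 1 for 31. For 73 of the 78 genes measured in both pairs the log2 ratio was lower in HSCs than in CD41low CD9low HSCs, by a median difference of -0.24. That difference could not be tested, because an interaction of genotype and population leaves no residual degree of freedom in 4 libraries.

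**Figure D2:**
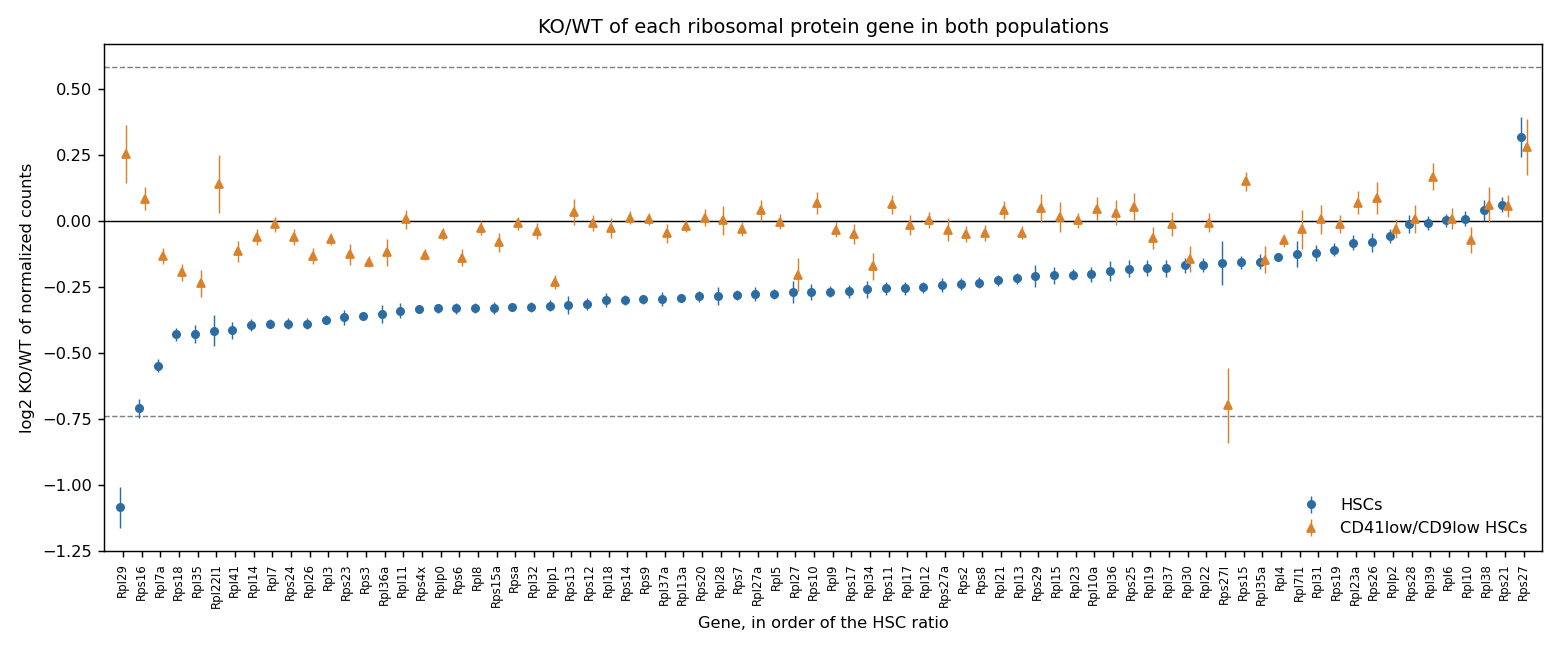
log2 KO/WT of normalized counts for 76 ribosomal protein genes in order of their ratio in HSCs, with circles for HSCs, triangles for CD41low CD9low HSCs, bars for 95% counting intervals and dashed lines at ratios of 1.5 and 0.6. Most circles lie below 0 around -0.27 while most triangles lie near 0, Rpl29 is the only circle under the lower line and Rps27l the lowest triangle.

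Past the ratio cutoffs of 1.5 and 0.6 stood only 1 gene in each pair. In HSCs no gene was over 1.5 (14.1% of all genes were) and Rpl29 alone was under 0.6 (10.3% of all genes were). Among genes with at least 1000 counts, where counting noise is small and where all 78 genes fall, 6.34% were over 1.5 and 2.03% under 0.6. In CD41low CD9low HSCs only Rpl39l was over 1.5 (13.5% of all genes) and none was under 0.6 (12% of all genes). Among genes with at least 1000 counts in that pair the background was 2.14% and 0.285%. Rps16 at 0.611 in HSCs and Rps27l at 0.616 in CD41low CD9low HSCs lay just outside the lower cutoff.

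Rpl29, a large subunit protein that is dispensable for mouse survival, was counted at 97.0 CPM in HSC WT, 45.1 in HSC KO, 81.2 in CD41low CD9low WT and 96.7 in CD41low CD9low KO. The HSC KO library was the only low one of the 4. Its KO/WT ratio was 0.471 (counting interval 0.447 to 0.497) in HSCs and 1.19 (1.10 to 1.29) in the other population. Rps16, a small subunit protein, had the same form, with 388, 234, 541 and 573 CPM in the same order of libraries and ratios of 0.611 and 1.06.

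The next 3 genes in HSCs, and others that were among the lowest in the second population, were below 1 in both pairs. Rpl7a, on the large subunit, had 752 and 508 CPM in the WT and KO HSC libraries and 1158 and 1055 CPM in the CD41low CD9low pair, with ratios of 0.684 and 0.912. Rps18 had ratios of 0.742 and 0.874 and Rpl35 of 0.744 and 0.849. Rplp1 of the stalk, which recruits translation factors, had ratios of 0.801 and 0.852, and Rpl27 of 0.830 and 0.869.

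At the other end, 6 genes had a ratio above 1 in HSCs, among them Rps27, Rps21, Rpl38, Rpl10 and Rpl6. Rps27 stood highest in that pair, with 54.0 and 66.5 CPM in the WT and KO HSC libraries and 89.5 and 109 CPM in the CD41low CD9low pair, ratios of 1.25 (1.18 to 1.32) and 1.22 (1.13 to 1.31). This small subunit gene shared 98.6% of its 50-base words with transcripts of other genes, among them the intronless copy Rps27rt. Rps27rt, outside the symbol rule, had ratios of 1.06 and 1.53, and how reads were divided between such copies is uncertain. Rps21 had a ratio of 1.04 in both pairs, and Rpl38, known for a role in translation of Hox mRNAs, one of 1.03 and 1.04. The ratios of Rpl10 (1.01 and 0.951) were near 1.

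Rps27l, a paralog of Rps27 and a known p53 target, was the lowest gene of the CD41low CD9low pair. It was counted at 53.7 and 47.5 CPM in the WT and KO HSC libraries and at 65.7 and 40.4 CPM in the CD41low CD9low libraries. The ratio was 0.896 in the HSC pair, and in the CD41low CD9low pair it was 0.616 (0.558 to 0.681). Rpl39, at the exit of the peptide tunnel, and Rps15 were among the highest there, with ratios of 1.12 and 1.11 against 0.996 and 0.898 in HSCs.

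The most abundant genes by CPM were below 1 in both pairs. Rps3, a small subunit protein that also acts in DNA repair, had 2002 CPM in HSC WT, 1540 in HSC KO, 2857 in CD41low CD9low WT and 2567 in CD41low CD9low KO. Its ratios were 0.779 and 0.899. Ratios in HSCs and CD41low CD9low HSCs were 0.793 and 0.916 for Rps4x, 0.817 and 0.987 for Rpl13a and 0.795 and 0.967 for Rplp0. Rpl4 was nearer to 1 in HSCs, at 0.909 and 0.951. The 5 genes with the most counts made up 15.7% to 16.6% of all ribosomal protein counts in a library.

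Genes linked to marrow failure lay within the same range. Rps19 had ratios of 0.928 in HSCs and 0.993 in CD41low CD9low HSCs, Rps14 of 0.813 and 1.01, Rps24 of 0.764 and 0.960, Rps26 of 0.946 and 1.06 and Rpl35a of 0.899 and 0.904. Rpl5 and Rpl11, which bind Mdm2 when they are free of the ribosome, had ratios of 0.825 and 0.790 in HSCs and 0.999 and 1.005 in the other pair. Rps6, the substrate of the S6 kinases, had 0.796 and 0.908. Rpsa, also known as a laminin receptor, had 0.798 and 0.994, and Rps27a, made as a fusion with ubiquitin, 0.846 and 0.978.

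Paralog pairs differed in part from each other. Rpl22 had ratios of 0.891 and 0.996, while its paralog Rpl22l1 had 121, 89.7, 86.5 and 95.3 CPM in HSC WT, HSC KO, CD41low CD9low WT and CD41low CD9low KO, with ratios of 0.750 and 1.10. Rpl7 had ratios of 0.764 and 0.992 and Rpl7l1 of 0.918 and 0.979, and Rpl3 had 0.772 and 0.954. The stalk gene Rplp2 had 0.962 and 0.981. Rpl24, listed for the CD41low CD9low libraries only, had a ratio of 0.969.

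Other ribosomal genes that the symbol rule does not take were set beside them. Fau, the precursor of the small subunit protein eS30, had ratios of 0.833 in HSCs and 1.09 in CD41low CD9low HSCs. Rps3a1 had 0.852 and 0.858, Rpl36al 0.775 and 0.798 and Rack1, a scaffold on the small subunit, 0.833 and 0.977.

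Ratios in the HSC pair followed transcript length across all genes, and ribosomal protein mRNAs are short. Their main transcripts had a median of 843 bases, against 2564 for all protein-coding genes in the annotation. Among other protein-coding genes with at least 1000 counts, the median log2 KO/WT in HSCs was -0.28 for 119 genes of 500 to 750 bases, -0.25 for 192 genes of 750 to 1000 bases and -0.21 for 596 genes of 1000 to 1500 bases. It was 0.00 at 3000 to 4000 bases and 0.26 for 1131 genes of at least 6000 bases. The ribosomal protein genes in the first 3 of these bins had medians of -0.28 (20 genes), -0.27 (21) and -0.28 (15). From 500 to 1000 bases these medians were thus close to those of other genes of the same length, and from 1000 to 1500 bases they were lower. For the 10 ribosomal protein genes under 500 bases the median was -0.17, against -0.21 for 31 others, and for the 6 of 1500 to 2000 bases it was -0.27 against -0.14. In CD41low CD9low HSCs the 13 other genes under 500 bases had a median of -0.23 and the 9 ribosomal protein genes one of 0.03, and from 500 bases on the medians of other genes lay between -0.08 and 0.06. Within the ribosomal protein genes the ratio moved little with length. The 27 with main transcripts of at least 1000 bases had a median of -0.28 and the 51 shorter ones of -0.27.

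**Figure D3:**
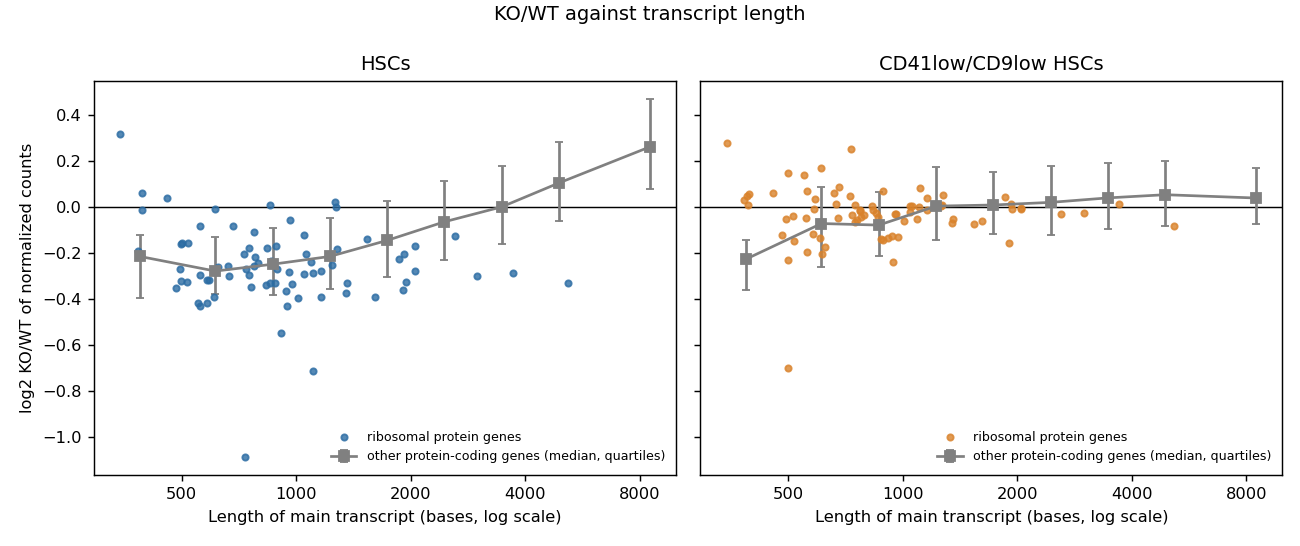
log2 KO/WT of normalized counts against the length of the main transcript in bases (log scale), for HSCs on the left and CD41low CD9low HSCs on the right. Squares with bars give median and quartiles of other protein-coding genes with at least 1000 counts by length bin, and points are ribosomal protein genes. In HSCs the squares climb from -0.28 at 500 to 750 bases to 0.26 in the longest bin and most points lie around the squares of their length, whereas in CD41low CD9low HSCs most points lie near 0 and so do the squares, except that of genes under 500 bases at -0.23.

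When the running median of the 500 other genes nearest in total exon length was subtracted, the ribosomal protein median in HSCs was -0.13 with 62 of 78 genes below 0, and with the length of the longest protein-coding transcript it was -0.06 with 51 of 78 below 0. Rpl29 (0.531) was under the lower cutoff also after the first of these corrections, and Rps27 was at 1.43. In CD41low CD9low HSCs the same corrections gave medians of 0.00 and 0.02. How much of the HSC difference goes with transcript length was therefore dependent on how length was measured, and whether it arose in the cells or in library preparation was not tested.

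Ribosomal protein genes have many processed pseudogenes, and reads that fit several places were not counted for any gene. At least 50% of the 50-base words of the main transcript were shared with transcripts of other genes for 41 of the 82, and under 10% for 10. The median log2 KO/WT in HSCs was -0.27 for the former (40 genes), -0.25 for the 31 between and -0.33 for the 7 that passed with under 10%. Pseudogenes whose symbol begins with Rpl or Rps held 0.123% and 0.0978% of the WT and KO HSC libraries and 0.112% and 0.121% of the CD41low CD9low pair. Copies under other symbols, such as Gm names, were not in this sum. Reads set aside for more than 1 alignment numbered 111.8 and 121.6 per 100 gene counts in the HSC pair and 104.6 and 96.21 in the other.

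Over both populations together no ribosomal protein gene passed a test of genotype. An edgeR quasi-likelihood fit with population and genotype as terms takes the populations as the replicates of a genotype. The fit took each gene's error from a trend over all genes. It called 1.62% of 16262 genes higher and 1.19% lower in KO at an adjusted p under 0.05, and 0 of 79 ribosomal protein genes in either direction. At an unadjusted p under 0.05, 8 ribosomal protein genes were lower (4.93% of all genes were) and 0 higher (5.86%). DESeq2 called 0 of 78 as well, where it called 70 of 13739 genes higher and 30 lower. At an unadjusted p under 0.05 it had 5 ribosomal protein genes lower, where 416 of all genes were lower and 561 higher. The estimate was negative for 73 of 79, with a median log2 of -0.15, and the lowest adjusted p was that of Rpl29 (log2 -0.43, SE 0.17, adjusted p = 0.204, edgeR).

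Between populations the difference was larger and did pass the test. Ribosomal protein genes were higher in CD41low CD9low HSCs than in HSCs for 44 of 79 genes in the same edgeR fit, where 9.11% of all genes were called higher, and lower for 1, Rpl39, where 13.7% were called lower. The median log2 difference was 0.40 for ribosomal protein genes and -0.07 for all genes. By CPM both CD41low CD9low libraries lay above both HSC libraries for 64 of the 79 genes (29.3% of all genes) and below them for 4, Rpl6, Rpl10, Rpl35a and Rpl39 (29%). This test takes the WT and KO libraries as the replicates of a population. The populations were also counted on different annotation releases (37140 genes shared), were sequenced to different depths and differed in the share of reads outside genes, and these cannot be told apart from the sort.

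**Figure D4:**
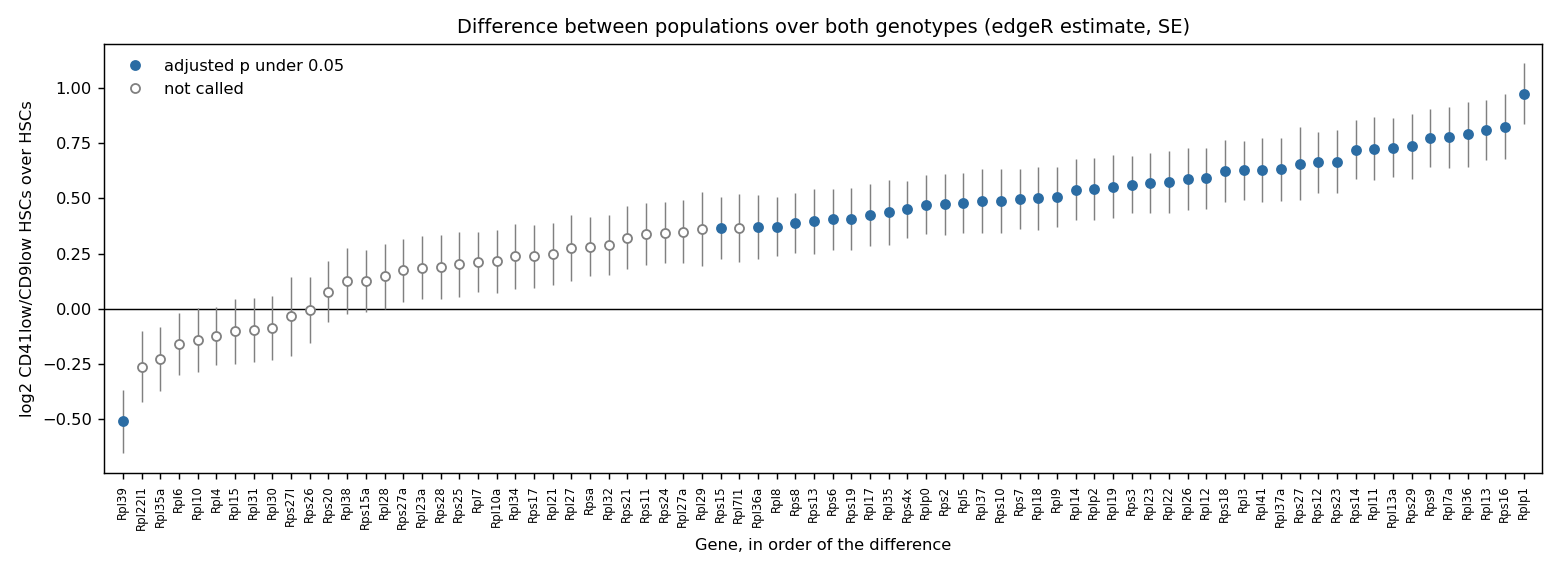
log2 difference between CD41low CD9low HSCs and HSCs over both genotypes for 76 ribosomal protein genes, in order, with SE bars from the edgeR fit and filled points where the adjusted p was under 0.05; Rpl39l, with counts near 0, is left out. The filled points above 0 lie between 0.37 (Rps15) and 0.97 (Rplp1), and the only filled point below 0 is Rpl39.

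The called genes came from every class of the ribosome. The 3 stalk genes were all higher, as were 19 of 30 small subunit and 22 of 42 large subunit genes, but 0 of 4 paralogs tested. Of the called genes Rplp1 differed most, with 890 and 704 CPM in the WT and KO HSC libraries and 1760 and 1498 CPM in the CD41low CD9low ones (log2 0.97, SE 0.14, adjusted p = 5.68e-11, edgeR). The other stalk genes were also higher, Rplp0 by 0.47 and Rplp2 by 0.54 on the log2 scale. Next to Rplp1 came Rps16 (log2 0.82), Rpl13 (0.81), Rpl36 (0.79), Rpl7a (0.78) and Rps9 (0.77).

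Rpl39 was the exception, at 536 and 526 CPM in the HSC libraries and 367 and 413 CPM in the CD41low CD9low libraries (log2 -0.51, SE 0.14, adjusted p = 0.00328, edgeR). Estimates below 0 without a call included Rpl22l1 (-0.26), Rpl35a (-0.23), Rpl6 (-0.16), Rpl10 (-0.14) and Rpl4 (-0.12). Rpl4 had 1874, 1682, 1746 and 1657 CPM in HSC WT, HSC KO, CD41low CD9low WT and CD41low CD9low KO, so its highest library was an HSC library, in contrast to Rps3. Among genes linked to marrow failure, Rpl11 (0.72), Rps14 (0.72), Rpl5 (0.48) and Rps19 (0.41) passed the test, and Rps24 (0.34, adjusted p = 0.0513), Rps26 (0.00) and Rpl35a did not (edgeR). The fit with an offset for exon length called 38 higher and 2 lower, the added one being Rpl22l1. Over all 16262 genes that fit called 1798 higher and 1797 lower.

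Other genes of protein synthesis and growth were set beside the ribosomal protein genes as lists, which were chosen with earlier results of these data known. In HSCs the median log2 KO/WT was -0.21 for 77 mitochondrial ribosomal protein genes, -0.20 for 72 oxidative phosphorylation subunits, -0.27 for 20 translation factors and other TOP mRNAs and -0.30 for 31 ribosome assembly factors. These lists had 65 of 77, 64 of 72, 18 of 20 and 30 of 31 genes below 1, so the median of the ribosomal protein genes lay within the range of these lists. RNA polymerase I and its factors (11 genes) had a median of -0.14, Myc and its growth pathway (10 genes) one of 0.03 and p53 targets (11 genes) one of 0.05. In CD41low CD9low HSCs the medians of these 7 lists lay between -0.08 and 0.06.

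**Figure D5:**
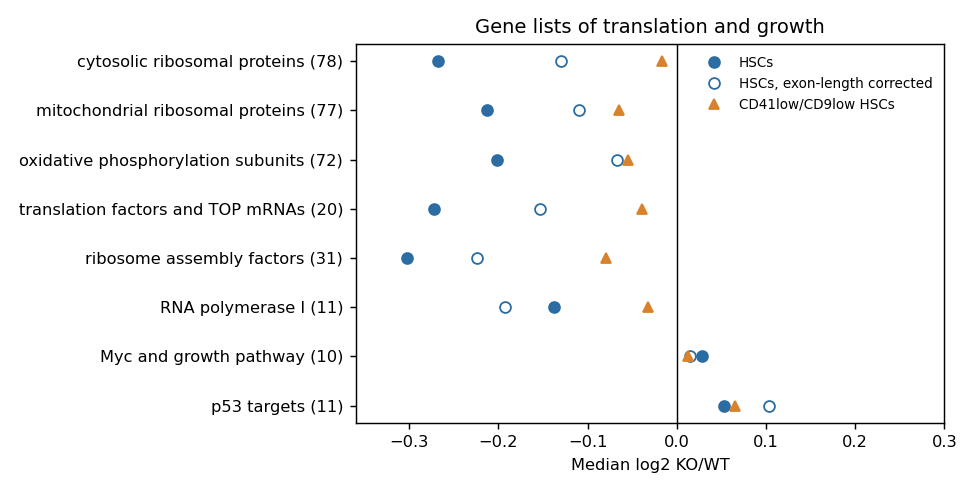
Median log2 KO/WT of ribosomal protein genes and of 7 other gene lists, with the number of genes that passed in HSCs in parentheses, filled circles for HSCs, open circles for HSCs after correction for exon length and triangles for CD41low CD9low HSCs. Ribosomal proteins (-0.27), TOP mRNAs (-0.27) and assembly factors (-0.30) are the leftmost filled circles, and Myc and p53 targets lie slightly above 0.

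The total exon length of the assembly factors had a median of 3837 bases against 1776 for the ribosomal protein genes, and after the exon-length correction their HSC median was -0.22 against -0.13. The same correction gave -0.19 for RNA polymerase I, -0.15 for TOP mRNAs, -0.11 for mitochondrial ribosomal proteins and -0.07 for oxidative phosphorylation. Myc and its growth pathway were then at 0.02 and p53 targets at 0.10. Ncl, which encodes nucleolin, was counted at 1276 and 750 CPM in the WT and KO HSC libraries and at 949 and 838 CPM in the CD41low CD9low pair, and it was lower in KO over both populations (adjusted p = 0.0291, edgeR). Gar1, of the particles that modify ribosomal RNA, had ratios of 0.565 in HSCs and 1.05 in CD41low CD9low HSCs. Utp20 (1.15) and Heatr1 (0.973), which act in early assembly, had the highest ratios of that list in HSCs.

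Among the TOP mRNAs Hnrnpa1, a splicing regulator, had 713, 390, 739 and 610 CPM in HSC WT, HSC KO, CD41low CD9low WT and CD41low CD9low KO and was lower in KO over both populations (adjusted p = 0.00459, edgeR). Pabpc1, the poly(A) binding protein, had the opposite ratio in HSCs, 1.66, and 0.951 in the other pair. Btf3 had 0.726 and 1.01 and Eif3f 1.11 and 1.02. Mrpl12, of the mitochondrial ribosome, with ratios of 0.615 and 0.735, was the only member of its list called for genotype (adjusted p = 0.0365, edgeR), and Mrps6 had 0.657 and 0.855. Mrpl37 (1.15) and Mrpl53, counted at under 2 CPM in every library, had the highest HSC ratios of that list.

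In the remaining lists no gene was called for genotype in the edgeR fit. Cox5b had ratios of 0.700 and 0.876 and Atp5l of 0.706 and 0.950, while Ndufa3 (1.13) and Ndufb2 (1.12) were highest among oxidative phosphorylation subunits in HSCs. Polr1c and Polr1d, shared by RNA polymerases I and III, had 0.714 and 0.719 in HSCs and 0.776 and 1.18 in the other pair, and Taf1a and Taf1c 1.24 and 1.03 in HSCs. Myc had 108, 92.8, 81.9 and 61.5 CPM in HSC WT, HSC KO, CD41low CD9low WT and CD41low CD9low KO, and ratios of 0.868 and 0.752. Eif4ebp1 had the lowest HSC ratio of the growth pathway (0.776) and Rptor (1.23) and Max (1.17) the highest. Among p53 targets Zmat3 (2.48) and Eda2r (1.94) had the highest HSC ratios and Cdkn1a (0.602) and Pmaip1 (0.801) the lowest, all at 0.00 to 20.3 CPM.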

How the data were processed

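RNA-seq libraries of sorted HSCs and CD41low CD9low HSCs were prepared with a stranded mRNA kit. The authors aligned reads with TopHat2 2.0.10 to mm10 and deposited raw HTSeq read counts per Ensembl gene, without normalization (per the labels, which also name SAMtools and DESeq). The strand setting and annotation release were not given in the sources used here. Summary lines for unassigned reads were kept out of library totals. Symbols, types and lengths came from GENCODE M21 (GRCm38), and promoter sequences from RefSeq (GRCm38.p6). The main transcript was chosen by annotation, not by expression.

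KO/WT ratios used median-of-ratios size factors of the pair and genes with at least 10 counts in a library, with exact Clopper-Pearson 95% intervals for counting error. An edgeR 4.0.16 quasi-likelihood fit (TMM, Benjamini-Hochberg, SE from the F statistic) covered the 37140 shared genes, and DESeq2 1.42.0 was an alternative. With 1 library per group, p-values rest on these 4 libraries only and do not cover the spread between mice or sorts. The edgeR p-values took each gene's error from a trend over all genes and not from that gene's own spread between libraries. Tested on simulated data, the genotype fit recovered 95% of genes changed 3-fold, with 8 false calls among 15743 genes. The simulation had no population difference, 1 dispersion for all genes and the same change in both populations. It therefore does not show how the fit treats changes as small, or as unlike between populations, as those of the ribosomal protein genes. Shared 50-base words were sought on both strands of all GENCODE transcripts. The software was R 4.3.3 and Python 3.11.15.

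Named genes were the 5 with the highest mean CPM, the 5 highest and lowest ratios in each pair, genes past a cutoff, genes of fixed role, paralog pairs, subunit genes outside the rule, and the 2 highest and lowest HSC ratios of each list. Rpl6, Rps27rt, and genes named for their level per kb or their population difference were added after values were seen. The members, lists and alternatives were chosen with earlier results of these data known. Single values of a few genes are not reported here, and 2 of the genes were left out of the plots by gene, while counts and medians cover all members.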

Additional observations from a re-analysis of the deposited data

How the results depend on the processing

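No paired analysis was possible because the libraries carry no replicate numbers that could serve as a block. The edgeR fit holds population as a term, so it already compares KO with WT within populations, and no further pairing could be added. Leaving out a replicate could not be done with 1 library per genotype and population. In the order HSC WT, HSC KO, CD41low CD9low WT and CD41low CD9low KO, the ribosomal protein share was 5.90, 4.81, 7.74 and 7.47% of counts on protein-coding genes, 5.62, 4.58, 7.15 and 6.94% without mitochondrially encoded genes, 5.68, 4.66, 7.32 and 7.09% with 4 subunit genes outside the symbol rule and 5.62, 4.60, 7.20 and 7.01% with pseudogenes named Rpl or Rps, and was lower in KO in each pair throughout. The summed KO/WT ratio of 0.830 in HSCs, against 0.972 in the second population, was 0.826 by TMM, 0.820 by total count and 0.833 without the 5 genes with the most counts, which gave 0.978 in the other pair. The HSC median log2 KO/WT was -0.28 by TMM, -0.29 by total count, -0.28 with size factors over all 4 libraries, -0.13 and -0.059 with the exon-length corrections and -0.33 over the genes with under 10% shared words, an alternative chosen after seeing the data. The CD41low CD9low median, -0.02, was -0.010 with size factors over all 4 libraries, -0.022 with the 4 added genes, -0.028 over genes with few shared words, and turned to 0.00033 and 0.015 with the exon-length corrections. With a lower cutoff of 1/1.5, 2 genes were past the cutoffs in HSCs (Rps16 added) and 2 in CD41low CD9low HSCs (Rps27l added). Filters that took only genes counted in both libraries, or with at least 50 or 1000 counts, left 0 in CD41low CD9low HSCs, because Rpl39l was removed. Over all genes the genotype fit called 263 genes higher and 194 lower in KO, but 80 and 48 with at least 50 counts, 145 and 95 with RLE, 145 and 89 with TMM computed without the ribosomal protein genes and 70 and 30 by DESeq2. No ribosomal protein gene was called for genotype in any of these. Over the settings tried, 38 to 44 ribosomal protein genes were called higher in CD41low CD9low HSCs. Among all 13305 to 19897 genes tested, 879 to 1798 were called higher there.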
